A study of Mus musculus with 28 samples.

Results

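CD8 cells and CD4 cells of the mouse were compared after 2 days of stimulation in culture, as the direct difference in expression level between them. The comparison used the arrays titled as stimulated for 2 days, which were 3 arrays of CD8 cells and 3 arrays of CD4 cells, 6 of the 28 arrays of the series. The CD8 cells carried the transgenic OT1 receptor and the CD4 cells the transgenic AND receptor. All cells were labelled as C57BL/6N in background, were cultured for 2 days with 5 ng/ml of the survival cytokine IL7 in wells coated with antibodies to CD3 and CD28 at 10 µg/ml, and were sorted again to over 99% purity. RNA was amplified in 2 rounds and hybridised to Affymetrix Mouse 430A2 arrays, and the series describes the replicates as independent biological ones. The question stated for this design was how the response to stimulation differs between the cell types. Because the lineages carried different receptors, an effect of the lineage and an effect of the receptor cannot be told apart.

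Both cell types are activated when the T cell receptor and the CD28 costimulatory molecule are engaged. A naive CD8 cell recognises peptides on class I MHC molecules and matures into a killer cell that stores perforin and granzymes, while a CD4 cell recognises peptides on class II molecules and supplies cytokines such as interleukin 2. The transcription factors Runx3 and ThPOK (Zbtb7b) fix this choice in the thymus, and Eomes and T-bet (Tbx21) later drive killer functions.

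Other sets of arrays served to ask whether a difference was also seen elsewhere. Under continuous antigen, 3 arrays of CD8 cells and 3 arrays of CD4 cells had received the same 2 days of culture stimulation and then 3 days in mice that expressed their antigen. Unstimulated cells of day 5 had been cultured without antibodies and then kept for 3 days in antigen-free mice, with 3 arrays of CD8 cells and 2 arrays of CD4 cells.

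The deposited values were log2 signals, and the number of arrays limited the precision. Array-wide medians of the 6 arrays lay between 6.29 and 6.35. Correlations across genes, which are not independent replicates, were 0.9849 to 0.9941 between arrays of the same cell type and 0.9735 to 0.9869 between cell types. The value of 0.9869, between CD8 array 1 and CD4 array 1, was above the 0.9860 between CD8 arrays 1 and 3. Xist, the RNA that coats the inactive X chromosome, was at 12.66 on CD8 array 1 and at 12.74 on CD4 array 2, against 5.69 to 6.40 on the other 4 arrays, and the Y-linked gene Eif2s3y was low on those same arrays at 3.24 and 3.32. With Xist as a covariate, a setting chosen after seeing the data, 246 genes were called, against 347 without it. The Gapdh 3′ minus 5′ signal, a measure of RNA length, was 1.94, 1.85 and 2.04 log2 units in CD8 cells and 1.46, 1.70 and 1.82 in CD4 cells, without overlap. The same measure for beta-actin was 1.38, 1.69 and 1.49 in CD8 cells and 1.11, 1.39 and 1.20 in CD4 cells.

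Of 12393 genes tested with limma, 347 (2.80%) differed between CD8 and CD4 cells at an adjusted p below 0.05. In CD8 cells 143 of them (1.15% of genes tested) were higher and 204 (1.65%) were lower. The counts of called genes in the lists below are to be read beside these shares. The CD8 and CD4 arrays did not overlap in any called gene, and they did not overlap in 2903 genes (23.4%) in all. The difference was at least 2-fold in 155 called genes, 79 higher and 76 lower in CD8 cells. It was at least 4-fold in 23 genes that were higher and in 11 that were lower. The median difference over all genes was -0.03 log2 units with a median standard error of 0.127, and 2323 genes had an unadjusted p below 0.05.

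**Figure D1:**
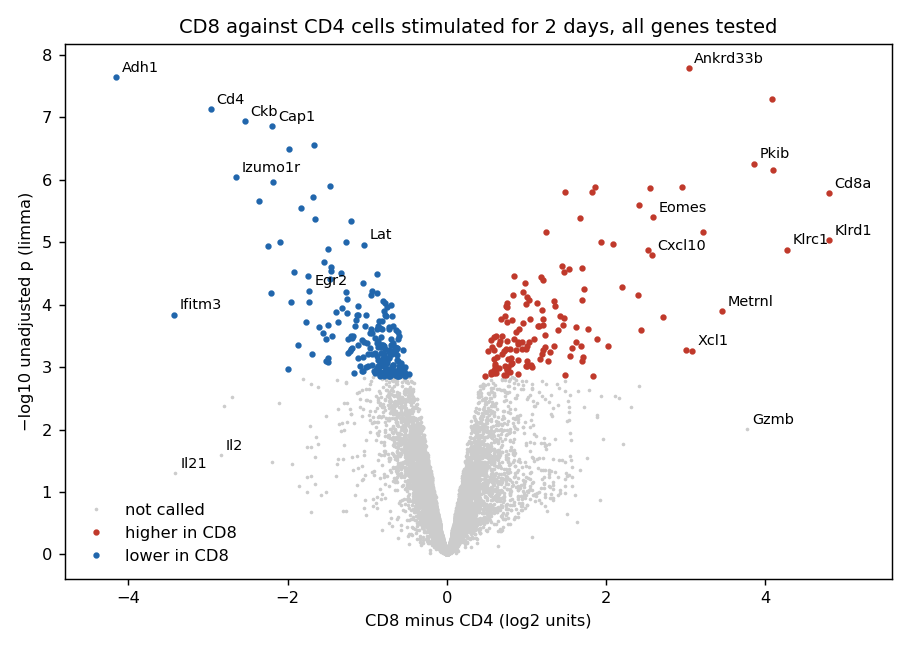
Each point is 1 of 12393 genes; the horizontal axis gives the CD8 minus CD4 difference in log2 units and the vertical axis −log10 of limma's unadjusted p. Red points (143) were higher and blue points (204) lower in CD8 cells at an adjusted p below 0.05; Gzmb, Il2 and Il21 had large differences and were not called.

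The count of called genes rested on the arrays used. It was 752 without CD8 array 1, 101 without CD8 array 2, 86 without CD8 array 3, 50 without CD4 array 1, 258 without CD4 array 2 and 186 without CD4 array 3. In all 6 of these fits 46 genes were called, 25 higher and 21 lower in CD8 cells. Of the 98 genes named by rule, those not called in the main comparison, Gzmb, Il2 and Runx3 among them, had no call to lose. A call was lost by 3 genes without CD8 array 1, by 32 without CD8 array 2 and by 35 without CD8 array 3. It was lost by 43 without CD4 array 1, by 18 without CD4 array 2 and by 20 without CD4 array 3. The sign was kept in all of these. When the unstimulated day 2 arrays shared the estimate of the spread, 3 genes were called, and the median standard error was then 0.557. Among those arrays the third of each cell type stood apart. Their array-wide medians were 4.83 (CD4) and 4.97 (CD8), against 6.41 to 6.53 on the other unstimulated day 2 arrays. With the third arrays left out, 87 genes were called. With the beta-actin 3′ minus 5′ signal as a covariate 25 genes were called. Of the genes described here these included Cd8a, Cd8b1, Cd4, Eomes, Gadd45b, Pkib, Ankrd33b, Nmrk1, Adh1, Izumo1r, Cap1 and Ckb, but not Klrd1, Klrc1 or any named gene of T cell receptor signalling or glycolysis.

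The coreceptors, which bind the MHC molecule beside the T cell receptor, were high in the cells named for them. Cd8a stood at 10.52, 10.77 and 10.79 in CD8 cells, against 6.49, 5.15 and 6.05 in CD4 cells. Cd8b1, the partner chain, stood at 10.39, 10.22 and 10.36 in CD8 cells, against 5.85, 6.02 and 6.79 in CD4 cells. Both were thus high on every CD8 array and on no CD4 array, with differences of 4.80 ± 0.32 (SE, adjusted p = 0.00108) and 4.10 ± 0.24 (adjusted p = 0.000847). Cd4 stood at 6.32, 6.04 and 6.44 in CD8 cells, against 9.29, 9.18 and 9.21 in CD4 cells. Its difference was -2.96 ± 0.12 (adjusted p = 0.000228), and its second probe set gave -1.13. These 3 genes were called in each of the 6 fits that left out an array.

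The lineage factors did not pass the test. Runx3 was at 6.14, 6.06 and 6.01 in CD8 cells and at 6.14, 6.04 and 6.04 in CD4 cells, a difference of -0.01 ± 0.09. Its means in the day 5 groups used here lay between 6.00 and 6.31, and whether its signal was above background is not known. Zbtb7b, the factor of CD4 cells, was at 7.85, 7.55 and 7.69 in CD8 cells and at 8.15, 8.42 and 8.71 in CD4 cells. The arrays did not overlap, but the difference of -0.73 ± 0.16 missed the threshold (adjusted p = 0.0697). Gata3 overlapped, with a difference of -0.77 ± 0.44. Of the 18 measured genes on the lineage list, 3 were higher and 2 lower in CD8 cells, with a median difference of -0.12. Besides the coreceptors these were Myb, higher at 0.70 ± 0.12, and Cd5, a receptor that dampens T cell receptor signals, lower at -1.20 ± 0.18.

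With Cd8a, the largest rises belonged to a killer cell receptor pair. Klrd1 encodes CD94, which forms a receptor for a nonclassical class I molecule together with NKG2A, the product of Klrc1. Klrd1 stood at 10.05, 10.24 and 10.03 in CD8 cells, against 5.11, 6.30 and 4.51 in CD4 cells. Klrc1 stood at 8.50, 8.59 and 7.09 in CD8 cells, against 3.87, 3.56 and 3.90 in CD4 cells. The differences were 4.80 ± 0.41 (adjusted p = 0.00368) and 4.28 ± 0.39 (adjusted p = 0.00423). Both calls remained without any 1 array and were lost with the beta-actin covariate. A second Klrc1 probe set gave 0.10. No fold is given for Klrd1 or Klrc1, because whether their low signals in CD4 cells were above background is not known from the values used. Klrk1, which encodes the activating receptor NKG2D, was also higher, at 7.34, 7.09 and 6.25 in CD8 cells, against 5.11, 5.32 and 5.18 in CD4 cells. Its call (1.69 ± 0.27, adjusted p = 0.0306) was kept in 2 of the 6 fits without an array. Klrk1 was also the gene called among 8 measured genes listed as varying between mouse strains, and the part of strain in its difference was not tested.

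No other of the 16 measured killer cell receptor genes passed the test, and the median of the list was -0.01. Crtam, an adhesion receptor of activated killer cells, differed by 2.32 ± 0.55 (adjusted p = 0.0815) and Cd160 by 1.01 (adjusted p = 0.0721). Ncr1, the defining receptor of natural killer cells, lay between 4.20 and 4.57 on all 6 arrays. Of 9 natural killer cell markers, Eomes alone was called. Their summed signal was 453.6 to 598.7 in CD8 cells and 348.6 to 405.4 in CD4 cells. Eomes is part of this sum and had the largest difference of the list (2.59, around a median of 0.00). The sum is thus not separate from the Eomes result, and its part in the killer receptor result was not tested.

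**Figure D2:**
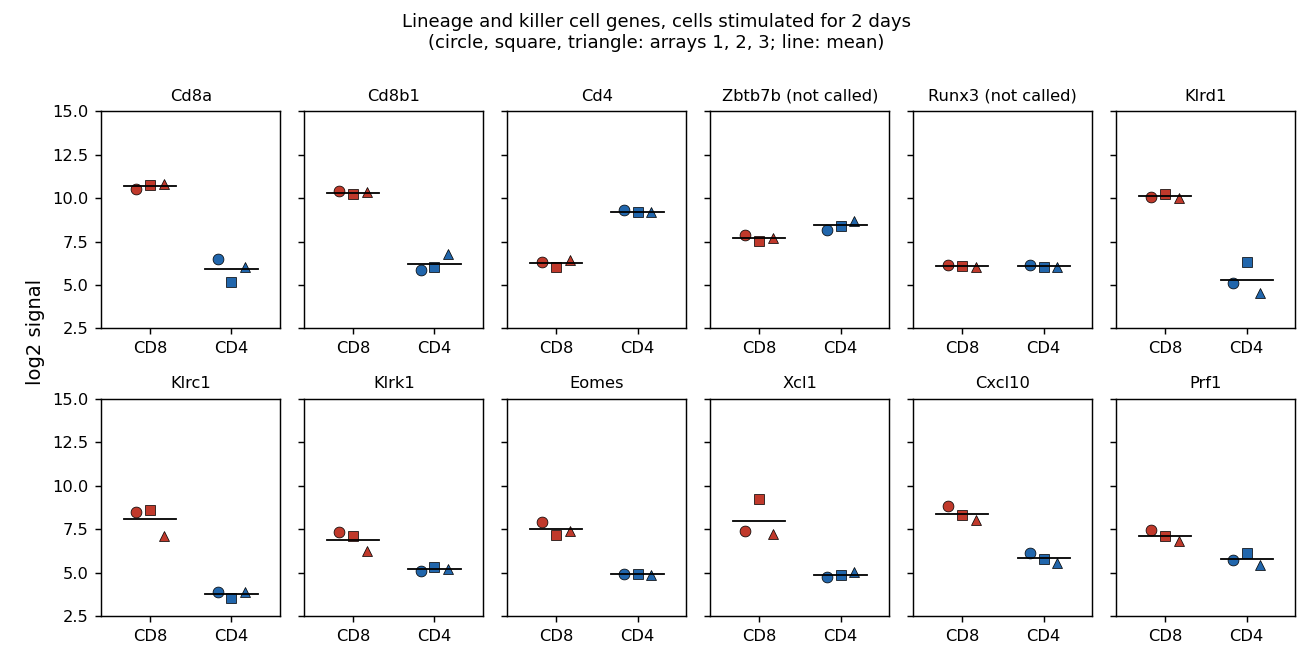
Log2 signals of 12 genes on each array of cells stimulated for 2 days, with CD8 in red, CD4 in blue and a line at the mean. Klrd1, Klrc1, Eomes and Xcl1 stood above every CD4 array on all 3 CD8 arrays. Runx3 differed by -0.01, and whether its signal was above background is not known.

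Among transcription factors, Eomes was higher in CD8 cells and T-bet was not. Eomes stood at 7.94, 7.16 and 7.37 in CD8 cells, against 4.93, 4.91 and 4.86 in CD4 cells. The difference of 2.59 ± 0.20 (adjusted p = 0.00199) was called in all 6 fits without an array, and the second Eomes probe set gave 1.41. No fold is given, because whether the low Eomes signal in CD4 cells was above background is not known. Tbx21 was at 10.61, 10.43 and 10.81 in CD8 cells and at 11.52, 11.38 and 10.81 in CD4 cells (-0.62 ± 0.20, adjusted p = 0.170). Hopx, a homeodomain cofactor, was higher at 2.02 ± 0.32 (adjusted p = 0.0306), with 11.61, 11.02 and 11.03 in CD8 cells and 8.90, 8.80 and 9.92 in CD4 cells. Lower in CD8 cells were 3 factors. Klf2, which maintains lymph node homing receptors, differed by -1.54 ± 0.15 (adjusted p = 0.00624). Irf4, which is induced in proportion to receptor signal strength, stood at 11.62, 11.90 and 11.91 in CD8 cells, against 13.10, 13.00 and 12.70 in CD4 cells (-1.12 ± 0.14, adjusted p = 0.0157). Its second probe set gave -1.16. Batf, a partner of Irf4 on DNA, differed by -0.64 ± 0.09 (adjusted p = 0.0232). The calls of Klf2, Irf4, Hopx and Batf were kept in 6, 3, 2 and 1 of the 6 fits without an array. Over the 27 measured factors of this list the median was -0.26, with 2 higher and 3 lower.

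Of the 23 measured cytotoxic effector genes, 3 were higher and 1 was lower in CD8 cells, around a median of 0.04. Prf1, which encodes perforin, was at 7.43, 7.11 and 6.83 in CD8 cells, against 5.75, 6.13 and 5.45 in CD4 cells (1.35 ± 0.22, adjusted p = 0.0306). Serpinb9, an inhibitor that protects killer cells from their own granzyme B, was higher by 1.71 ± 0.29 (adjusted p = 0.0359), and its relative Serpinb6b by 1.49 ± 0.29 (adjusted p = 0.0497). Cst7, which encodes cystatin F, an inhibitor of the proteases that activate granzymes, was lower by -0.97 ± 0.14 (adjusted p = 0.0252). Each of these 4 calls was lost in 3 or 4 of the 6 fits without an array.

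Granzyme B showed a large difference that did not pass the test. Gzmb was at 13.38, 13.01 and 13.09 in CD8 cells, against 10.08, 11.38 and 6.72 in CD4 cells. All CD8 arrays were above all CD4 arrays, but the CD4 arrays spread over more than 4 log2 units, and the difference was 3.77 ± 1.07 (adjusted p = 0.122). Without CD4 array 3 the difference was 2.43 and was called (adjusted p = 0.0449; the range over all alternatives was 0.0449 to 0.971). Gzma overlapped, with 4.62, 4.57 and 5.83 in CD8 cells and 4.78, 6.55 and 4.71 in CD4 cells.

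Several cytokine genes also varied widely among the CD4 arrays. Il2 was at 8.49, 9.51 and 8.02 in CD8 cells and at 12.22, 9.11 and 13.20 in CD4 cells. Il21, a cytokine of follicular helper cells, was at 3.46, 3.46 and 3.44 in CD8 cells and at 7.21, 9.94 and 3.45 in CD4 cells. The CD4 array with the lowest Il2 had the highest Il21, Il4, Ifng and Gzmb signal, and that with the highest Il2 had the lowest of these. CD4 array 2, the array with the lowest Il2, was also the CD4 array with high Xist, and the part of this in the result was not tested. The differences were -2.84 ± 1.00 for Il2 (adjusted p = 0.196) and -3.41 ± 1.44 for Il21 (adjusted p = 0.267). Without CD4 array 2 the Il2 difference was -4.04, and without CD4 array 3 that of Il21 was -5.12, and each was then called. In each case the array left out was the CD4 array within the CD8 range, so the larger difference follows from leaving it out. Each gene was called in 1 of the 6 fits without an array. Il4 was at 4.05, 4.13 and 3.90 in CD8 cells, against 5.27, 8.09 and 3.99 in CD4 cells (-1.76 ± 0.93). Ifng overlapped, at 10.19, 11.47 and 8.44 in CD8 cells and 9.00, 10.29 and 6.27 in CD4 cells. Of the 20 measured effector cytokines, Il6 alone passed the test. This count is near the share over all genes (2.80%) and is no result about the list. Il6 stood at 7.44, 8.20 and 7.73 in CD8 cells, against 5.76, 4.57 and 5.73 in CD4 cells. It was higher by 2.44 ± 0.35 (adjusted p = 0.0231). Its call was kept in 3 of the 6 fits without an array and lost with the beta-actin covariate (adjusted p = 0.261).

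**Figure D3:**
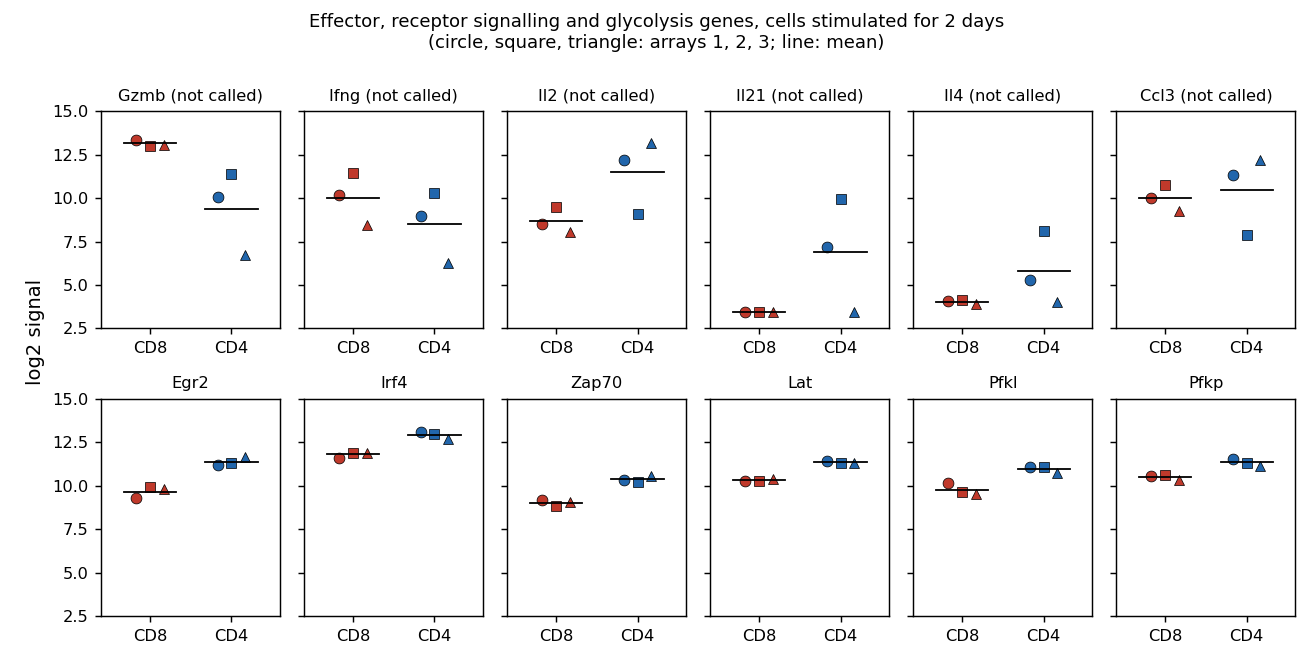
Log2 signals of 12 genes on each array of cells stimulated for 2 days, drawn as in the plot of lineage and killer cell genes. In the upper row the CD4 arrays spread widely, from 6.72 to 11.38 for Gzmb and from 3.45 to 9.94 for Il21; in the lower row the arrays of each cell type lay close together and the cell types did not overlap.

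Of 12 chemokine genes, 2 were higher and 1 was lower in CD8 cells. Xcl1, the chemokine that attracts cross-presenting dendritic cells, was at 7.42, 9.26 and 7.21 in CD8 cells, against 4.74, 4.86 and 5.02 in CD4 cells (3.08 ± 0.51, adjusted p = 0.0318). Cxcl10, a ligand of the receptor CXCR3, was at 8.86, 8.32 and 8.01 in CD8 cells, against 6.12, 5.80 and 5.54 in CD4 cells (2.58 ± 0.24, adjusted p = 0.00502). Ccl5, a chemokine that resting memory CD8 cells store as RNA, was lower in CD8 cells here, at 6.90, 6.56 and 6.37, against 7.96, 7.99 and 7.65 in CD4 cells (-1.25 ± 0.16, adjusted p = 0.0184). Ccl3 and Ccl4 overlapped between the cell types, with Ccl3 at 10.00, 10.74 and 9.25 in CD8 cells and at 11.33, 7.88 and 12.19 in CD4 cells. Of the 17 chemokine receptors, Cxcr6 was higher at 1.58 ± 0.26 (adjusted p = 0.0309), with its call kept in 2 of the 6 fits without an array. A count of 1 in this list is near the share over all genes (2.80%) and is no result about the list. The call of Xcl1 was kept in 2, that of Cxcl10 in 6 and that of Ccl5 in 3 of the 6 fits without an array.

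The sequences before the start sites of Klrc1, Xcl1 and Cxcl10 are printed as a selection of those searched for motifs. These genes were higher in CD8 cells together with Eomes, a T-box factor. Each sequence is the 250 bases before the start, from RefSeq on GRCm38.p6, in the direction of the gene. Capitals mark the letters of a RUNX motif (TGTGGT), a T-box motif (GGTGTGA), an EGR motif (GTGGGCG), an AP-1 motif (TGANTCA), the interferon-stimulated response element (ISRE) or the NF-kappaB motif on either strand.
Klrc1 (chr6:129678974-129679223, minus strand): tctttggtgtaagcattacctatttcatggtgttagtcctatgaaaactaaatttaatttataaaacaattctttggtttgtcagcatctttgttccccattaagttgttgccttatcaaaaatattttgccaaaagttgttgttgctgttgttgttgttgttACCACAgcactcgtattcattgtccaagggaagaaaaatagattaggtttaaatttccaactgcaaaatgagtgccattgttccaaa
Xcl1 (chr1:164935523-164935772, minus strand): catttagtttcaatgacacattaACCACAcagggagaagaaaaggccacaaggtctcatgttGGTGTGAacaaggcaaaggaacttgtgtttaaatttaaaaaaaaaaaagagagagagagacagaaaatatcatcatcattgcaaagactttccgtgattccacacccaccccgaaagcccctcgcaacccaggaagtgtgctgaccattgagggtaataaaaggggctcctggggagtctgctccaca
Cxcl10 (chr5:92348890-92349139, minus strand): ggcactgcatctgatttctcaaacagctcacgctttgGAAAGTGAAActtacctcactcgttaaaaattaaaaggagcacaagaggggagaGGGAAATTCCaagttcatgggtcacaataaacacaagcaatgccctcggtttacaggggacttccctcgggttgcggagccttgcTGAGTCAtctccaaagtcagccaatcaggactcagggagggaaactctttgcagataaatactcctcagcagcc

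Klrc1 had the RUNX letters 87 bases before its start, and Xcl1 had them at 227 bases with the T-box letters at 188 bases. Cxcl10 had the ISRE letters, to which interferon-activated factors bind, at 213 bases, the NF-kappaB letters at 159 bases and the AP-1 letters at 74 bases before its start. Of other genes higher in CD8 cells that were searched, Cd8a, Pkib, Metrnl, Gadd45b and Hopx held none of these motifs. Eomes, Il6 and Prf1 held some. The RUNX letters occurred in 17.1% of the 146 windows of genes higher in CD8 cells, in 13.6% of the 235 windows of genes lower in CD8 cells, in 11.3% of the windows of all genes tested and in 14.0% of all 32851 windows. The T-box letters occurred in 2.05% of the windows of genes higher in CD8 cells, 2.55% of those lower and 2.97% of those tested. These shares were not tested, and a match of letters is not a measured binding site.

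Several genes of the T cell receptor signalling chain were lower in CD8 cells. Of the 22 measured genes on this list, 6 were lower and 0 were higher in CD8 cells, against 2.80% called of all genes. A negative difference was found in 20 of the 22, and in 6839 of all 12393 genes. The median was -0.51, against -0.03 for all genes. Zap70, the kinase recruited to the receptor, stood at 9.18, 8.83 and 9.09 in CD8 cells, against 10.34, 10.21 and 10.56 in CD4 cells (-1.33 ± 0.14, adjusted p = 0.00781). A second Zap70 probe set gave a difference of -0.06, and the call was lost without CD4 array 1 (-1.35). Lat, the membrane scaffold that Zap70 phosphorylates, stood at 10.29, 10.30 and 10.40 in CD8 cells, against 11.45, 11.33 and 11.31 in CD4 cells (-1.04 ± 0.09, adjusted p = 0.00384). Lcp2, the adaptor SLP-76, was lower by -1.11 ± 0.18 and Vav1, an exchange factor that binds it, by -1.18 ± 0.18. Cd5 and Csk, the kinase that restrains Lck, were also lower. Lat kept its call in all 6 fits without an array, Lcp2, Vav1 and Cd5 in 2 and Csk in 1, and no named gene of the list kept it with the beta-actin covariate. The CD3 chains missed the threshold, with Cd3d at -0.45 ± 0.09 (adjusted p = 0.0536), Cd3e at -0.56, Cd3g at -0.17 and Cd247 at -0.41. Trav9d-3, a T cell receptor alpha variable segment, was lower by -1.20 ± 0.09 (adjusted p = 0.0021), and the cell types carried different transgenic receptors.

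Of 19 genes that report receptor signals, 2 were lower and 0 were higher in CD8 cells, around a median of -0.07. Egr2, a zinc finger factor induced by calcium signals, stood at 9.29, 9.93 and 9.79 in CD8 cells, against 11.22, 11.31 and 11.67 in CD4 cells. The difference was -1.73 ± 0.20 (3.32-fold lower, adjusted p = 0.0122), its second probe set gave -1.44, and the call was lost without CD4 array 1 (-1.82). Spry1, a feedback inhibitor of the Ras pathway, was lower by -1.73 ± 0.21 (adjusted p = 0.0147). Egr1 (-0.29), Egr3 (-0.19) and Nr4a1 (-0.07), which respond to the same signals, were not called.

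Below are the 250 bases before the first annotated start of Egr2 and before that of Izumo1r. Both genes were lower in CD8 cells, and their windows are a selection of those searched for motifs.
Egr2 (chr10:67535249-67535498, plus strand): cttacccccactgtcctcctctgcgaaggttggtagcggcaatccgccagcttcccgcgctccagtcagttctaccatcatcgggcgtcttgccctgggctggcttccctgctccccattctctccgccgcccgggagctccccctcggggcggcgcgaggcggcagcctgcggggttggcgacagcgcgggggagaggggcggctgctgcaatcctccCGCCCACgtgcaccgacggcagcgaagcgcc
Izumo1r (chr9:14903768-14904017, minus strand): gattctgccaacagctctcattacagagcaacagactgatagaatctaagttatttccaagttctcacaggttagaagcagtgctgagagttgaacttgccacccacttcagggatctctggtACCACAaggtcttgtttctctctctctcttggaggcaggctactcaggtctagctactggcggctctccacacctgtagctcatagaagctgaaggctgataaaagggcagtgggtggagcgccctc

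The EGR letters lay 31 bases before the Egr2 start, and the RUNX letters 127 bases before the Izumo1r start. The other 4 annotated Egr2 start windows, which lie downstream of the one shown, held none of the 6 motifs. Of other genes lower in CD8 cells that were searched, Klf2, Adh1 and Ckb also held none, while Ifitm3 and a Zap70 window held some. The EGR letters occurred in 19.6% of the windows of genes lower in CD8 cells, in 9.59% of the windows of genes higher in CD8 cells, in 10.8% of the windows of all genes tested and in 7.02% of all windows. Median GC content was 58.8% in the windows of genes lower in CD8 cells, 58.4% in those of genes higher and 58.4% in those of genes tested. These shares are descriptions without a test.

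Some glycolysis genes were lower in CD8 cells. All 18 measured genes of the list had a negative difference, as had 6839 of all 12393 genes. Of the 18, 5 were called lower and 0 higher, against 2.80% called of all genes. The median was -0.53, against -0.03 for all genes. The called genes included the 3 phosphofructokinase genes, whose enzyme commits glucose to glycolysis. Pfkl stood at 10.19, 9.65 and 9.51 in CD8 cells, against 11.11, 11.08 and 10.76 in CD4 cells (-1.20 ± 0.20, adjusted p = 0.0316). Pfkp stood at 10.56, 10.61 and 10.33 in CD8 cells, against 11.57, 11.34 and 11.15 in CD4 cells (-0.86 ± 0.14, adjusted p = 0.0308). Pfkm differed by -0.76, the hexokinase Hk1 by -0.80 and Aldoc by -0.77. Pkm, the last enzyme of the pathway, had a difference of -1.20 ± 0.30 that missed the threshold (adjusted p = 0.0943), and the glucose transporter Slc2a1 one of -0.50. The calls of this list were kept in 1 or 2 of the 6 fits without an array and were lost with the beta-actin covariate.

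Few growth and division genes passed the test, and few of all genes did (2.80%). Counts of 0 or 1 in lists of this size are near that share and are no result about the lists. An unadjusted p below 0.05 was found in 2323 of all 12393 genes. Of 26 DNA replication genes, 23 had a positive difference, as had 5554 of all 12393 genes. The list median was 0.19, and the primase subunit Prim1 alone was called (0.82 ± 0.15, adjusted p = 0.0407). Of 24 mitosis genes limma called 0, with a median of -0.04 and 6 at an unadjusted p below 0.05. Gadd45b, a stress sensor that activates the p38 pathway, was the gene called among 21 cell cycle control genes. It stood at 11.90, 12.01 and 11.87 in CD8 cells, against 9.66, 9.13 and 9.75 in CD4 cells (2.42 ± 0.17, adjusted p = 0.00141). Limma also called 0 of the 21 ribosome biogenesis genes, with 9 at an unadjusted p below 0.05 and a median of -0.22. It called 0 of 16 ribosomal protein, 20 respiratory chain, 19 proteasome, 19 unfolded protein response and 18 amino acid genes, with 1, 2, 5, 4 and 6 genes at an unadjusted p below 0.05 in that order. Myc, which drives growth in activated T cells, was at 10.48, 10.50 and 10.46 in CD8 cells and at 10.87, 10.84 and 11.35 in CD4 cells (-0.54 ± 0.15, adjusted p = 0.117).

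**Figure D4:**
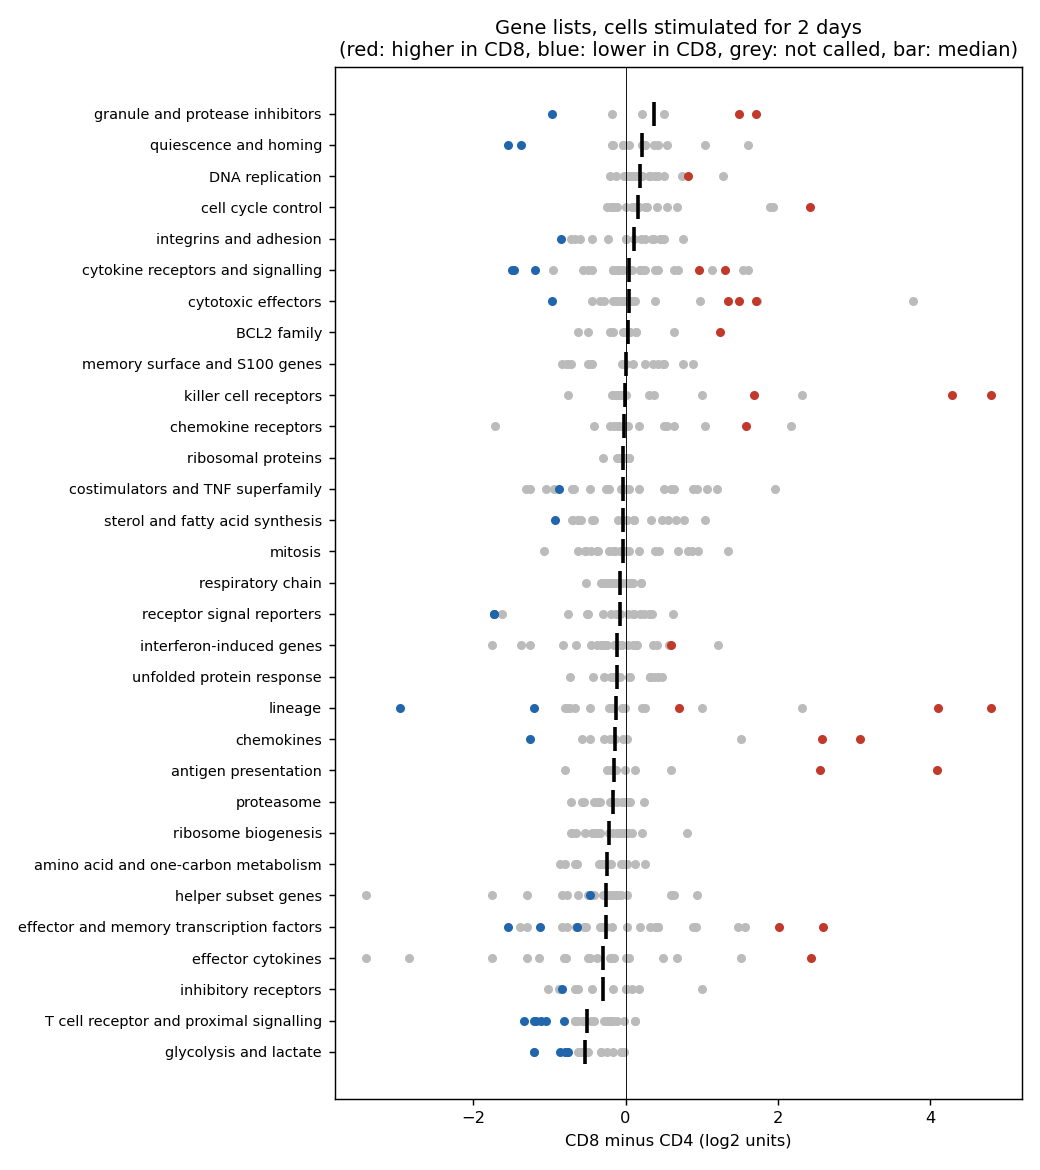
CD8 minus CD4 differences in log2 units for the genes of each list, with lists ordered by their median (black bar). Glycolysis (median -0.53) and T cell receptor signalling (median -0.51) lay lowest; killer cell receptors reached 4.80 around a median of -0.01.

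Cytokine receptors differed in both directions. Of 29 measured, 2 were higher and 3 were lower in CD8 cells. Il12rb1, a chain of the interleukin 12 receptor, stood at 8.90, 9.06 and 8.88 in CD8 cells, against 10.47, 10.20 and 10.64 in CD4 cells (-1.49 ± 0.13, adjusted p = 0.00423). Il6ra, the interleukin 6 receptor chain, was lower by -1.47 ± 0.16 (adjusted p = 0.00886), and Jak3, the kinase of the common gamma chain, by -1.19 ± 0.18 (adjusted p = 0.0275). Ifngr1, a chain of the interferon gamma receptor, was higher by 1.30 ± 0.22 (adjusted p = 0.0321) and Il18r1 by 0.96 ± 0.13 (adjusted p = 0.0215). Il12rb1 kept its call in 6, Il6ra in 5, Il18r1 in 3, Ifngr1 in 2 and Jak3 in 1 of the 6 fits without an array. Il2ra, the alpha chain of the interleukin 2 receptor, was at 9.77, 9.95 and 10.18 in CD8 cells and at 10.24, 11.15 and 9.01 in CD4 cells (-0.16 ± 0.49).

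Of 12 inhibitory receptor genes, Lag3, which binds class II molecules, was called (-0.84 ± 0.15, adjusted p = 0.0425), and its call was kept in 1 of the 6 fits without an array. With 2.80% of all genes called, a count of 1 in this list is no result about the list. Ctla4 had a difference of 0.00 ± 0.24, and Pdcd1 of -0.88 ± 0.49, with 9.21, 8.82 and 8.26 in CD8 cells and 9.59, 8.67 and 10.66 in CD4 cells. Bcl6, a factor of follicular helper cells, was at 5.02, 5.30 and 4.89 in CD8 cells and at 6.69, 5.65 and 6.75 in CD4 cells (-1.29 ± 0.30, adjusted p = 0.075). Cd40lg, the helper ligand for B cells, was at 5.45, 5.62 and 5.61 in CD8 cells and at 5.78, 5.70 and 5.85 in CD4 cells (-0.22 ± 0.10). Its means in the day 5 groups used here lay between 5.15 and 5.70, and whether its signal was above background is not known.

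Class I MHC probe sets were among the strongest signals that differed, and they disagreed with each other. The probe set that represented H2-D1 stood at 13.28, 13.05 and 13.47 in CD8 cells, against 9.40, 9.21 and 8.93 in CD4 cells, a difference of 4.09. Another H2-D1 probe set stood at 6.35, 6.21 and 6.44 in CD8 cells, against 10.83, 10.97 and 10.46 in CD4 cells, a difference of -4.42. With opposite calls within the gene, no direction is given for H2-D1. Its 9 probe sets are assigned to a highly polymorphic gene family in which probes can be shared or allele-dependent. For H2-K1, probe sets gave 2.55 and 3.15, both called, and 0.34 and 0.43, not called. Both probe sets of H2-T3, a nonclassical class I gene, had lower signals in CD8 cells (-1.98 and -3.59). All donors were labelled as C57BL/6N, and whether the donors of CD8 and CD4 cells carried the same class I alleles was not tested, so these are differences in probe set signal. B2m, the common light chain, had a difference of -0.01.

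Among the largest differences were genes outside the functional lists. Adh1, alcohol dehydrogenase, stood at 7.45, 7.24 and 6.91 in CD8 cells, against 11.42, 11.32 and 11.31 in CD4 cells, the largest fall at -4.15 ± 0.15 (17.7-fold lower, adjusted p = 0.00014). Izumo1r, which encodes folate receptor 4, stood at 7.33, 7.32 and 7.07 in CD8 cells, against 9.80, 10.20 and 9.66 in CD4 cells (-2.65 ± 0.16, adjusted p = 0.00102). Cap1, which turns over actin filaments, stood at 9.35, 9.22 and 9.10 in CD8 cells, against 11.42, 11.36 and 11.45 in CD4 cells, and its second probe set gave -1.84. Ckb, the brain-type creatine kinase, differed by -2.54 ± 0.11, the microtubule end-binding gene Mapre2 by -2.36 ± 0.16 and the sulfotransferase gene Chst2 by -2.24 ± 0.20. These 6 genes were lower in all 6 fits without an array. Ifitm3, an antiviral membrane protein, was lower by -3.43 ± 0.45 (adjusted p = 0.0185), with its call lost without CD4 array 1 (-3.27) and without CD8 array 3 (-3.11). Ptprf (-2.21), Ubxn11 (-2.18), Ptgir (-2.10), Hdc (-2.00), Chdh (-1.96) and Gstp3 (-1.92) completed the 15 largest falls with H2-T3 and Cd4. A second Hdc probe set gave -0.24.

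The largest rises outside the functional lists were as steep. Pkib, an inhibitor of protein kinase A, stood at 8.22, 7.45 and 8.15 in CD8 cells, against 3.92, 4.27 and 4.06 in CD4 cells (3.86 ± 0.22, adjusted p = 0.000762). Ankrd33b stood at 8.93, 8.82 and 8.70 in CD8 cells, against 5.78, 5.69 and 5.86 in CD4 cells (3.04 ± 0.10, adjusted p = 0.00014). Metrnl, a secreted protein, stood at 10.07, 8.56 and 9.14 in CD8 cells, against 5.82, 6.44 and 5.14 in CD4 cells (3.46 ± 0.45, adjusted p = 0.0176). Its call was lost without CD4 array 1 (3.47) and without CD8 array 3 (3.52). Cables1 (3.22 ± 0.27) and Nmrk1, a kinase of nicotinamide riboside (2.96 ± 0.19), were higher in all 6 fits without an array, and Fgf13 (3.01 ± 0.49) in 2 of them. A second Fgf13 probe set gave -0.05.

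Markers of other cell types were checked beside these results. Cd79b, a signalling chain of the B cell receptor, was higher in CD8 cells, at 7.87, 6.74 and 7.54, against 4.38, 4.30 and 5.30 in CD4 cells (2.72 ± 0.36, adjusted p = 0.0188). It was the gene called among 11 B cell markers, and the defining markers Cd79a (5.14, 5.13 and 4.96 in CD8 cells; 5.25, 5.11 and 5.18 in CD4 cells) and Ms4a1 (a difference of 0.10) were not called. Ighm, the immunoglobulin heavy chain gene, was at 10.74, 10.64 and 10.56 in CD8 cells and at 9.81, 9.29 and 10.22 in CD4 cells, without overlap, and its difference of 0.88 missed the threshold (adjusted p = 0.0973). The summed B cell marker signal, to which Ighm contributed most, was 1991 to 2274 in CD8 cells and 978.6 to 1558 in CD4 cells. Of the 8 regulatory T cell markers, Izumo1r and Gpr83 (-1.68 ± 0.11, adjusted p = 0.00118) were lower in CD8 cells. Foxp3, the defining factor of regulatory cells, was at 4.62, 4.40 and 4.40 in CD8 cells and at 4.86, 4.85 and 4.58 in CD4 cells. The summed signal of this list was 8732 to 9328 in CD8 cells and 8529 to 12490 in CD4 cells. Of 19 myeloid, 9 red cell and platelet, 12 stromal and 3 gamma-delta T cell markers limma called 0, with 1 myeloid and 1 red cell marker at an unadjusted p below 0.05. With 2.80% of all genes called, a count of 0 in lists this short is near the share over all genes. The summed myeloid signal, to which Cebpb contributed most, was 1448 to 1557 in CD8 cells and 1723 to 1868 in CD4 cells, without overlap. Cebpb was at 9.85, 9.71 and 9.77 in CD8 cells and at 10.25, 10.10 and 10.24 in CD4 cells. Its difference of -0.42 was the lowest of the myeloid list, which had a median of 0.01. The summed signals of the red cell and platelet, stromal and gamma-delta lists overlapped between CD8 and CD4 cells. The part of these markers in the results was not tested.

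The next question was whether these differences were also present between CD8 and CD4 cells on day 5. Of the 347 called genes, 246 (70.9%) had the same sign under continuous antigen, against 50.3% of all genes, and 252 (72.6%) had it between unstimulated cells, against 49.7% of all genes. The difference itself was tested in a model of 17 arrays. It differed from that under continuous antigen in 879 genes (7.09%), of which 127 were among the 347. The value after 2 days of stimulation was the higher in 293 (2.36%) and the lower in 586 (4.73%). It differed from that between unstimulated cells in 2422 genes (19.5%), of which 147 were among the 347, with 1174 (9.47%) higher and 1248 (10.1%) lower after 2 days of stimulation. The beta-actin 3′ minus 5′ signal of unstimulated day 5 arrays was 2.44, 2.24 and 1.92 in CD8 cells and 0.67 and 0.98 in CD4 cells, without overlap. With this signal as a covariate the lineage difference after 2 days of stimulation differed from that between unstimulated cells in 445 genes and from that under continuous antigen in 441. Days 2 and 5 also differed in culture and host, which cannot be told apart from stimulation.

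Klrd1, the coreceptors and several other genes had differences of the same sign in every setting. Klrd1 differed by 3.11 ± 0.35 under continuous antigen and by 4.72 ± 0.39 between unstimulated cells. Eomes differed by 4.82 under continuous antigen, more than after 2 days of stimulation (adjusted p = 0.00489), and by 3.42 between unstimulated cells. Cd4 differed by -3.33 and -2.47 in these settings, Cap1 by -2.94 and -2.60, and Cd79b by 2.81 and 3.25. For Cd8a the differences of 7.03 and 6.40 were larger than the 4.80 after 2 days of stimulation (adjusted p = 0.00295 and 0.0102).

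Other genes differed between the lineages after 2 days of stimulation but by little elsewhere, where the signals of some were low in both lineages. Pkib differed by -0.24 under continuous antigen and by 0.65 between unstimulated cells, and both contrasts with day 2 were called (adjusted p = 0.0016 and 0.00334). Cxcl10 differed by 0.10 and -0.26 in these settings (adjusted p = 0.0272 and 0.0082), and Il6 by 0.00 and 0.17 (adjusted p = 0.0166 and 0.0144). Under continuous antigen Pkib averaged 3.96 in CD8 cells and 4.20 in CD4 cells, and Il6 3.21 in both. Among genes lower in CD8 cells, Chst2 differed by 0.34 and -0.02 (adjusted p = 0.00198 and 0.00226, with means of 4.07 in unstimulated CD8 cells and 4.09 in unstimulated CD4 cells) and Il12rb1 by 0.18 and 0.17 (adjusted p = 0.0297 and 0.0198).

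Some genes changed direction. Metrnl was higher in CD8 cells by 3.46 after 2 days of stimulation and differed by -3.12 ± 0.43 under continuous antigen, a contrast of 6.58 ± 0.62 (adjusted p = 0.000234). Pfkl differed by -1.20 after 2 days of stimulation and by 1.18 under continuous antigen (adjusted p = 0.00249). Cst7 differed by -0.97 after 2 days of stimulation, by 0.52 under continuous antigen (adjusted p = 0.00293) and by 2.67 between unstimulated cells (adjusted p = 5.45e-06). Ccl5 differed by -1.25 after 2 days of stimulation, by -0.79 under continuous antigen and by 2.87 between unstimulated cells (adjusted p = 0.000259 for the last contrast). Mapre2 differed by -2.36 after 2 days of stimulation and by 1.80 between unstimulated cells (adjusted p = 5.45e-06). Of the called genes, 3 had opposite signs of at least 1 log2 unit after 2 days of stimulation and under continuous antigen, Metrnl, Pfkl and Top1mt.

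**Figure D5:**
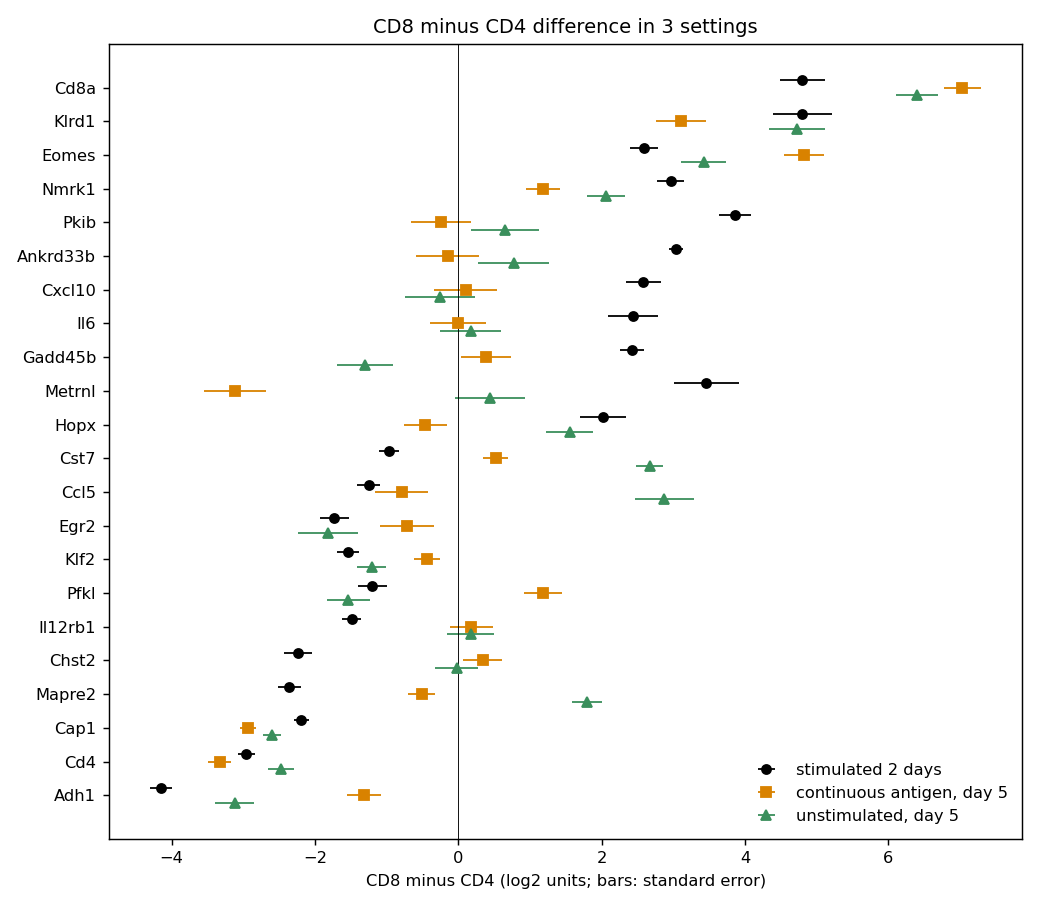
CD8 minus CD4 differences in log2 units with standard errors for 22 genes, after 2 days of stimulation (black), under continuous antigen (orange) and between unstimulated cells of day 5 (green). Cd8a, Klrd1, Eomes, Cap1, Cd4 and Adh1 kept their side in all settings, while Metrnl stood at 3.46 after 2 days of stimulation and at -3.12 under continuous antigen.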

How the data were processed

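Expression was measured on 28 Affymetrix Mouse 430A2 arrays. The authors deposited log2 signals per probe set made with RMA, per the submitters' processing notes, and the version is not given in the sources used here. RMA usually equalises arrays to each other, and the medians of the 6 compared arrays lay between 6.29 and 6.35. A shift shared by most genes would thus not show between these arrays. The third unstimulated day 2 arrays, with medians of 4.83 (CD4) and 4.97 (CD8), were not equalised to the others. No depth applies to arrays. Of 22690 probe sets, 20351 matched 1 current gene, giving 12393 genes, and of several probe sets for a gene the brightest on average across the 28 arrays stood for it.

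Levels were compared with limma 3.58.1 in R 4.3.3 (lmFit, eBayes, two-sided, Benjamini-Hochberg over all genes, called at an adjusted p below 0.05). The first comparison used the 6 stimulated day 2 arrays, and the tests of a difference between settings used 17 arrays with a mean per group. Summed marker signals are on the linear scale. Fold values are taken from log2 differences. The fits were tested on simulated data.

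The genes named were the 15 largest rises and falls among called genes, up to 4 called genes of each functional list, a fixed set of T cell genes, and the 6 largest called values each way of each difference between settings. Further called list members, markers and the genes whose upstream sequences are printed were named after their values were seen. The members and the 41 lists were chosen with earlier results of these data known. Alternatives were other probe set rules, a low-signal filter, normalisation, weights, covariates, other array sets and leaving out each array. Same-numbered CD8 and CD4 arrays deviated together with correlations of 0.501, -0.042 and 0.119, which do not all pass 0.1, so they were not treated as pairs.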

Additional observations from a re-analysis of the deposited data

Results flagged for a closer look

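The CD8 minus CD4 difference after 2 days of stimulation was set against that in another setting. The difference itself was tested over all genes (limma, called at an adjusted p below 0.05). The values below are the largest each way among the genes called, so all of them passed by selection. Other named genes, Cd8a, Eomes and Cst7 among them, also passed against continuous antigen and are not listed here. Each value is the difference after 2 days of stimulation minus that in the other setting, in log2 units. Against continuous antigen, it was 6.58 for Metrnl, 4.10 for Pkib, 3.60 for Tgfb3, 3.51 for Ttc39c, 3.31 for Socs3 and 3.19 for Ankrd33b. Tgfb3, a TGF-beta ligand gene, differed by -0.47 after 2 days of stimulation and by -4.07 under continuous antigen. On the negative side it was -2.82 for Adh1, -2.66 for Smyd2, -2.63 for Top1mt, -2.59 for Shmt1, -2.57 for Chst2 and -2.53 for H2-Q10. H2-Q10 is a class I MHC gene, and whether its probes are shared or allele-dependent was not tested.

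Against unstimulated cells of day 5, the value was 4.13 for Tnfsf11, 3.71 for Gadd45b, 3.44 for Shoc2, 3.39 for Ncmap, 3.38 for Ramp3 and 3.21 for Tnfrsf9. It was -5.64 for Ccr9, -4.53 for Nkg7, -4.38 for Pou2af1, -4.16 for Mapre2, -4.12 for Ccl5 and -4.01 for Ctla2b. Ccr9, a gut homing receptor, was 5.67 higher in unstimulated CD8 cells and differed by 0.03 after 2 days of stimulation. Its signals were then low in both lineages, with means of 4.26 in CD8 cells and 4.23 in CD4 cells. Its other probe sets gave 0.08 and -0.54. Nkg7, a granule membrane gene, was 5.51 higher in unstimulated CD8 cells and differed by 0.98 after 2 days of stimulation. Tnfrsf9, the costimulatory receptor 4-1BB, differed by -2.59 between unstimulated cells and by 0.63 after 2 days of stimulation.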

How the results depend on the processing

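Over the 98 genes named by rule and 20 other settings, no called value changed sign, although single H2-D1 probe sets were called in opposite directions; genes named after their values were seen were not among the 98. Of these values 1558 kept their side of the threshold, 378 lost a call and 17 gained one. The 1558 include values of genes that were called neither in the main comparison nor in the other setting. The count of called genes (347) became 1069 with array weights, 87 with 10 day 2 arrays, 3 with all 12 day 2 arrays, 29 with all 28 arrays, 25 with the beta-actin covariate, 57 at an adjusted p below 0.01 and 155 at a difference of at least 1 log2 unit, and lay between 50 and 752 when an array was left out. The called genes on functional lists (51) became 111, 20, 1, 10, 7 and 16 in the first 6 of these settings and lay between 13 and 68 without an array. The setting of 10 day 2 arrays leaves out the third unstimulated array of each cell type, whose array-wide medians stood apart. The cause of these changes was not tested, except that a stricter threshold takes fewer genes by construction. The count for the difference from continuous antigen (879) became 1356 with all probe sets, 2300 with array weights, 3 with all 28 arrays, 441 with the beta-actin covariate, 277 at an adjusted p below 0.01 and 456 at a difference of at least 1 log2 unit, and lay between 469 and 1248 without an array. Without CD4 array 1 of day 2 it was 469, without CD8 array 3 of day 2 it was 510, and without CD4 array 1 or CD8 array 2 of continuous antigen it was 540 and 549. That for the difference from unstimulated cells (2422) became 3855, 4 and 445 with all probe sets, all 28 arrays and the beta-actin covariate, 1123 at an adjusted p below 0.01 and 1109 at a difference of at least 1 log2 unit, and lay between 1487 and 2543 without an array. It was 1488 without CD4 array 1 and 1487 without CD4 array 2 of the unstimulated cells.

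With a replicate block, 487 genes were called, 273 higher and 214 lower in CD8 cells (56.1% higher, against 41.2% without it), and 73 of them were on functional lists. With the block, 804 genes differed from continuous antigen and 2276 from unstimulated cells. Of the genes named by rule, Ifng (adjusted p = 0.031, against 0.519 without the block) and Ttc39c gained a call and Ptger2 and Oasl2 lost it. The adjusted p of Ifng ranged from 0.031 to 1 over all alternatives. In their deviations from the group means, same-numbered arrays did not all go together, and CD8 arrays 2 and 3 did not correlate best with their own number. Signals near the background and probe sets shared by related genes limit what can be said of dim and polymorphic genes.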
